A study of Mus musculus with 24 samples.

Results

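Open chromatin around Ifng, the gene of interferon gamma (IFN-γ), was described in CD8+ T cells from tumor and lymph nodes of mice with melanoma. The locus comprised every ATAC-seq peak whose summit lay inside Ifng, or within 100 kb of it with Ifng as the nearest protein-coding gene. In the 18 peak lists that held at least 10000 peaks, 278 of 565505 peaks met this definition, and they fell into 31 of 79578 regions of 0.501 kb. Ifng lies on the forward strand of chromosome 10 at chr10:118441046-118445894 (GRCm38), and each region is named by the distance of its centre from the start site. Of the 31 regions, 9 were upstream, 2 inside Ifng, 14 downstream and 6 inside Ifngas1, a long non-coding RNA gene. The nearer edge of Ifngas1 lies 56.1 kb beyond the end of Ifng. The closest protein-coding neighbors were Iltifb, with a gap of 146 kb, and Il22, with a gap of 231 kb, on the upstream side, and Dyrk2, with a gap of 409.7 kb, on the downstream side.

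IFN-γ is the main inflammatory cytokine of CD8+ T cells, Th1 cells and natural killer (NK) cells. It signals through the receptor chains Ifngr1 and Ifngr2 and the kinases Jak1 and Jak2, and it raises antigen presentation and chemokine production in tumor cells and myeloid cells. Its gene is turned on by T cell receptor signals and by IL-12 and IL-18. The T-box factors T-bet (Tbx21) and Eomes, Runx3 and Stat4 act at the promoter and at conserved elements on both sides of the gene, and these elements open as T cells become effector cells. The Ifngas1 transcript, also called NeST, has been reported in mice to raise Ifng transcription.

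All cells came from C57BL/6 mice that combined the alleles Lag3-iCreERT2 and Rosa26-LSL-tdTomato and carried subcutaneous B16-F10 melanoma. Tamoxifen (2 mg, intraperitoneally) was given to every mouse from day 8 through day 10, and organs were collected on day 19. In these mice Cre is driven from Lag3, the gene of an inhibitory receptor of activated and exhausted T cells, so tdTomato marks cells that expressed Lag3 while tamoxifen was present. The assay on sorted CD8+ T cells was Omni-ATAC on bulk populations, an ATAC-seq protocol in which Tn5 transposase inserts adapters into open DNA, and 24 libraries in 10 groups were deposited. The tumor gave LAG3+ tdTomato+ cells (DP), cells in libraries named LAG3_SP, cells in libraries named TDT_SP and LAG3- tdTomato- cells (DN). LAG3_SP, TDT_SP and DN cells were also sorted from lymph nodes, either draining the tumor (DLN) or not draining it (NDLN). The labels of the single-positive groups conflict: libraries named LAG3_SP are described as LAG3- tdTomato+, and those named TDT_SP as tdTomato+ with no LAG3 state, so both groups go by their library names here, with their LAG3 state left unstated. The labels give no age and do not say that replicates came from different animals, so p-values measure only the spread between these libraries. In bulk chromatin, fewer cells with an open region and less openness per cell cannot be told apart.

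The analysis used 12 tumor libraries (3 each of DP, LAG3_SP, TDT_SP and DN) and 6 lymph node libraries (1 each of LAG3_SP, TDT_SP and DN from DLN and from NDLN), with 14244 to 48268 peaks. The other 6 lists held 301 to 6613 peaks and were not used in any comparison. The authors' lists hold no read totals, and the number of fragments stacked at a summit, recovered from their fold ratio and −log10 p, ran from 6 to 201 at Ifng peaks of tumor libraries and from 5 to 47 in lymph node libraries. Each peak was therefore placed by its order within its own list. Its rank counts from the strongest −log10 p, and its rank value is its quantile among the strongest 19000 peaks in comparisons within tumor, or 14000 in comparisons between tissues, with 1 for the strongest peak and 0 for a region with no peak among those kept. A rank value of 0 therefore includes weak peaks further down a list, and a difference in rank value is not an amount of open chromatin. DP replicate 4, LAG3_SP replicate 3, TDT_SP replicate 3 and DN replicate 4 of the tumor deviated from their group means together, with correlations of 0.185 to 0.375 between them, and their lists were short, at 24050, 19679, 22994 and 19771 peaks. Among 8 markers of CD8 T cells, 5 to 7 had a peak within 2 kb, among the strongest 14000, in each tumor library and 6 to 7 in each lymph node library. NK cells also use the Ifng locus. Of 5 NK cell markers, Ncr1, Klrb1c and Klri2 had no such peak in any library. Tyrobp had one in tumor DP alone, and Klre1 in tumor TDT_SP, tumor DN and lymph node libraries. The summed rank value of the 5 was 0 to 0.138 in tumor and 0 to 0.606 in lymph node, there from Klre1 alone. Of 3 markers of CD4 T cells and Tregs, the sum was 0.256 to 0.750 in DP and 0.151 to 1.36 in LAG3_SP. It was 0.254 to 0.557 in TDT_SP and 0 to 0.407 in tumor DN libraries. Within the tumor, Foxp3 had such a peak in LAG3_SP alone, and Cd4 in all groups but DN. The part of other cells in the results below was not tested. For 5 B cell and 5 myeloid markers the sums in tumor libraries were at most 0.280 and 0.266, with Ms4a1, Csf1r and Lyz2 at 0 in every tumor and lymph node library. Of 5 melanoma markers, Tyr and Dct had no such peak in any library, and Mlana had one in tumor LAG3_SP alone. The sum ran from 1.62 to 2.31 in tumor, with 1.96 to 2.31 in LAG3_SP. In lymph node it ran from 1.65 to 1.93, from Pmel and Mitf alone.

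The promoter is shown because every one of the 18 libraries had a peak there. The 250 bases before the start site, chr10:118440796-118441045 on the forward strand of GRCm38.p6, are printed as RefSeq gives them, with matches to the motifs searched in capitals.
Ifng promoter: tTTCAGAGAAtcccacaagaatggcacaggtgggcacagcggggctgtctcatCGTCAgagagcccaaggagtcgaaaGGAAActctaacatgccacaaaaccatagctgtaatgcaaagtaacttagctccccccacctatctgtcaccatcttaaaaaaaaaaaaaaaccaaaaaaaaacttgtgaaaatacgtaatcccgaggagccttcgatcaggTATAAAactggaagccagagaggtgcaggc
The capitals mark, from the 5′ end, a STAT motif (TTCNNNGAA), the reverse complement of the ATF and CREB core (TGACG), an NFAT core (GGAAA) and a TATA box (TATAAA). Counted back from the start site, the first bases of these matches lie at -249, -197, -172 and -30. On either strand these motifs occur in 7.02%, 17.8%, 55.6% and 12.4% of 32851 mouse RefSeq promoter windows of the same 250 bases before a start site. The letters of a T-box core (GGTGTGA), an AP-1 site (TGANTCA) and a RUNX core (TGTGGT), found in 3.33%, 6.75% and 14.0% of windows, were not in the Ifng window. The summits of the promoter peaks of the 18 libraries lay between -197, the first base of the TGACG match, and -1, with a median of -112.

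Across the 18 libraries the locus had a constant core and a variable rim. A peak was listed in every library at 6 regions, which stood at -21.8, -5.4, -0.1 (the promoter), +20.5, +28.2 and +29.8 kb. The +45.9 kb region had a peak in 17 lists, all but that of NDLN LAG3_SP replicate 1, which was the shortest of those used. In all, 13 regions had a peak in at least 10 lists and 5, at +7.9, +25.8, +53.3, +89.0 and +100.3 kb, in 1 list only, at ranks between 28113 and 47626. Of the 31 regions, 18 had peaks in both tissues, 13 in tumor libraries only and 0 in lymph node libraries only, with 12 tumor lists against 6 lymph node lists searched. The same counts over all regions are not given, so these counts cannot be read as particular to Ifng.

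The strongest peak of the locus was not the same region in every library. The +28.2 kb region, downstream of the gene, held the strongest peak of DP replicates 1 and 4, at ranks 1369 and 3218, and of LAG3_SP replicate 2, at rank 1879, while DP replicate 2 led with +20.5 kb at rank 2568. In LAG3_SP replicate 1 the promoter led, at rank 959, the highest place of any tumor peak of the locus. In LAG3_SP replicate 3 a peak at +0.7 kb, inside Ifng, led at rank 1142, while its promoter peak stood at rank 13035. TDT_SP libraries of the tumor led with -21.8 kb in replicate 1, at rank 3314, and with the promoter in replicates 2 and 3, at ranks 3021 and 5103. The -21.8 kb region held the strongest peak of all 3 tumor DN libraries, at ranks 2405, 4363 and 6598. The median of the best rank was 2568 in DP, 1142 in LAG3_SP, 3314 in TDT_SP and 4363 in DN tumor libraries, and the ranges of DP (1369 to 3218) and DN (2405 to 6598) overlapped, whereas LAG3_SP (959 to 1879) did not overlap DN. In lymph nodes the +28.2 kb region led in both LAG3_SP libraries, at rank 5950 in DLN and rank 941 in NDLN, and in NDLN DN replicate 1, at rank 4416. The -21.8 kb region led in DLN TDT_SP (rank 3383), NDLN TDT_SP (rank 4127) and DLN DN replicate 1 (rank 3844).

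**Figure D1:**
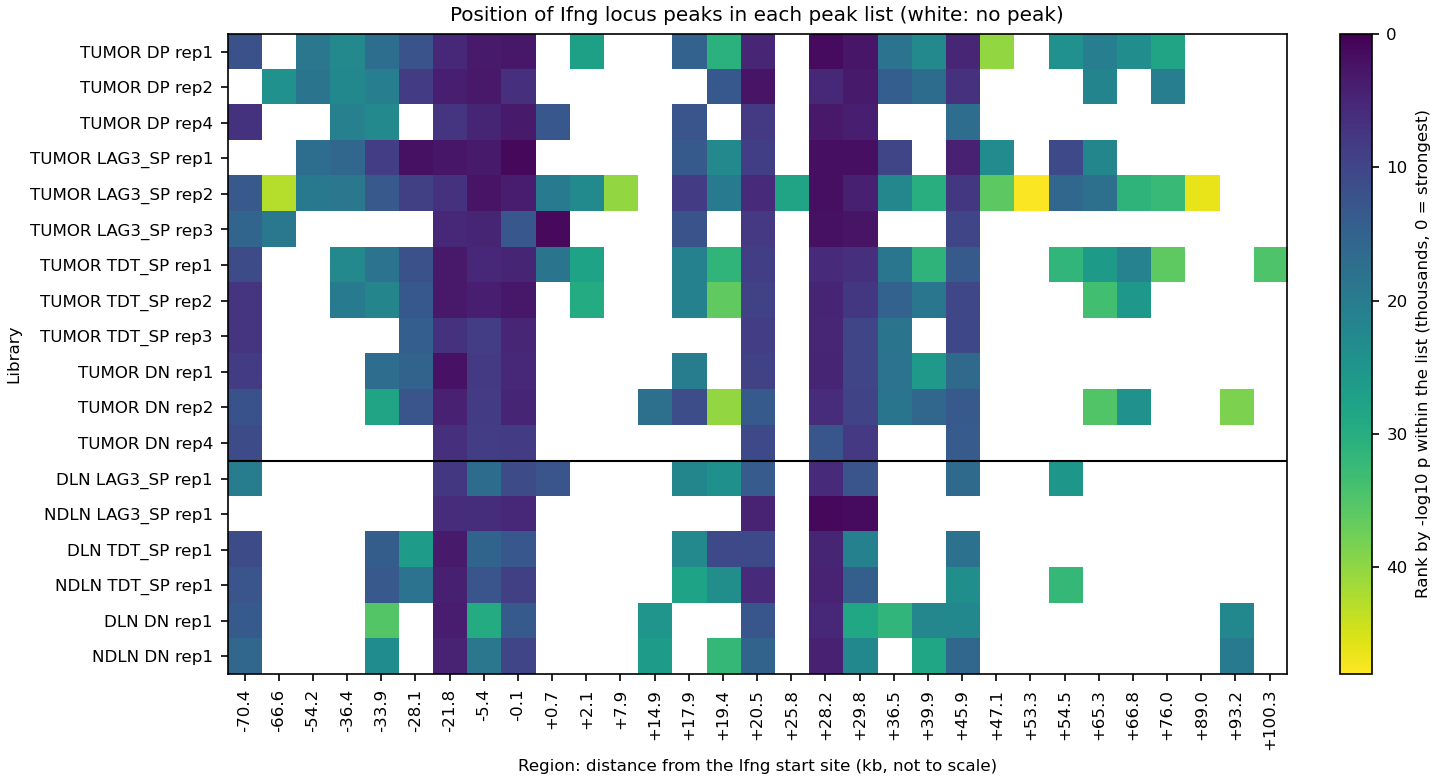
Rank by −log10 p of the Ifng locus peak in each of 31 regions (columns, named by distance from the start site in kb) and 18 libraries (rows), where dark marks the strongest peaks and white marks no peak. The 6 columns of the constant core are filled in all 18 rows, and 13 columns are empty below the line that separates the 12 tumor from the 6 lymph node libraries.

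Several regions at the rim were seen in some sorted groups and not in others. The -36.4 kb region had a peak in 3 DP, 2 LAG3_SP and 2 TDT_SP libraries and in 0 DN libraries of the tumor, at ranks 15839 to 22632. The -54.2 kb region had a peak in 2 DP and 2 LAG3_SP libraries only, at ranks 17308 to 19471. At +65.3 kb, inside Ifngas1, 7 tumor libraries and 0 lymph node libraries had a peak, and at +66.8, +76.0, +89.0 and +100.3 kb the tumor libraries with a peak numbered 5, 4, 1 and 1. The regions at +14.9 and +93.2 kb, the second of them inside Ifngas1, had peaks in tumor DN replicate 2 and in both lymph node DN libraries and in no DP, LAG3_SP or TDT_SP library, at ranks 17678 to 38620. All of these ranks exceed the length of the shortest list used, 14244 peaks, which came from a lymph node. That list could not hold a peak at such a rank. The shortest tumor list used held 19679 peaks, more than any rank at -54.2 kb. The part of list length in these patterns was not tested. The longest list, of 48268 peaks, was that of LAG3_SP replicate 2, which also had the most locus peaks, 28.

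Counting only the strongest 14000 peaks of each list removes that difference in length. Then DP libraries had 9, 9 and 9 locus peaks, LAG3_SP libraries 12, 11 and 9, TDT_SP libraries 9, 9 and 8 and DN libraries of the tumor 7, 10 and 9. The DP and DN values overlapped. Tumor libraries together had 7 to 12 (median 9.0), against 3 to 7 (median 6.0) in lymph nodes, and the 2 sets met only at 7.

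Within the tumor, 1 Ifng region passed the test against DN cells, and it was higher in DP and in LAG3_SP cells. At +29.8 kb, between Ifng and Ifngas1, the rank value was 0.847, 0.817 and 0.783 in DP, 0.892, 0.778 and 0.862 in LAG3_SP, 0.646, 0.587 and 0.472 in TDT_SP and 0.476, 0.478 and 0.584 in DN libraries. All DP and LAG3_SP libraries were above all TDT_SP and DN libraries, and TDT_SP and DN libraries overlapped. DP averaged 0.816 ± 0.032, LAG3_SP 0.844 ± 0.059, TDT_SP 0.568 ± 0.088 and DN 0.513 ± 0.062 (SD, n = 3 each). The difference was 0.303 for DP minus DN (SE 0.0619, limma adjusted p = 0.0215) and 0.331 for LAG3_SP minus DN (SE 0.0619, limma adjusted p = 0.0112), each adjusted by Benjamini-Hochberg over 29300 regions. It was 0.0555 for TDT_SP minus DN (SE 0.0619, limma adjusted p = 0.907). The stacked fragments at this summit were 169, 42 and 31 in DP, 49, 116 and 25 in LAG3_SP, 90, 84 and 31 in TDT_SP and 40, 49 and 19 in DN libraries, so the raw heights overlapped between groups.

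The calls at +29.8 kb rested on small margins. With the strongest 10000 peaks the difference was 0.576 in DP (limma adjusted p = 0.0608) and 0.630 in LAG3_SP (limma adjusted p = 0.0324). With every peak of each list ranked, the differences were 0.190 in DP and 0.212 in LAG3_SP (limma adjusted p = 0.697 and 0.603). With peaks ordered by fold ratio they were 0.125 and 0.232 (limma adjusted p = 0.771 and 0.510), and with 2 groups alone in the fit the adjusted p was 0.0834 and 0.0933. For DP minus DN the adjusted p was 0.0655 without DN replicate 1, 0.0614 without DN replicate 2, 0.0934 without DP replicate 1 and 0.0731 without DP replicate 2, with differences of 0.285 to 0.303. For LAG3_SP minus DN it was 0.0502 without LAG3_SP replicate 1, with a difference of 0.307. Without the 4 tumor libraries that deviated together the differences were 0.355 (limma adjusted p = 0.0221) and 0.358 (limma adjusted p = 0.0172).

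The -5.4 kb region, upstream of the promoter, showed the same order of groups. Its rank value was 0.816, 0.832 and 0.740 in DP, 0.814, 0.864 and 0.735 in LAG3_SP, 0.709, 0.788 and 0.541 in TDT_SP and 0.574, 0.564 and 0.540 in DN libraries. DP and LAG3_SP were above DN in all libraries, and TDT_SP spanned the gap. The difference from DN was 0.237 in DP (SE 0.0649, limma adjusted p = 0.0753) and 0.245 in LAG3_SP (SE 0.0649, limma adjusted p = 0.0545), neither past the threshold of 0.05. Without the 4 libraries that deviated together the adjusted p was 0.0262 for DP and 0.0183 for LAG3_SP. Without TDT_SP replicate 3 alone it was 0.0353 for DP and 0.0254 for LAG3_SP, and without LAG3_SP replicate 3 it was 0.0372 for LAG3_SP.

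At +20.5 and +28.2 kb the differences between DP and DN were of like size but the libraries spread more. At +20.5 kb the rank value was 0.729, 0.865 and 0.571 in DP, 0.534, 0.693 and 0.581 in LAG3_SP, 0.533, 0.501 and 0.542 in TDT_SP and 0.513, 0.280 and 0.447 in DN libraries. No DN library reached a DP or LAG3_SP library there, and the DP difference of 0.308 (SE 0.0957, limma adjusted p = 0.118) missed the threshold. At +28.2 kb it was 0.928, 0.714 and 0.831 in DP, 0.900, 0.901 and 0.883 in LAG3_SP, 0.687, 0.735 and 0.730 in TDT_SP and 0.741, 0.678 and 0.320 in DN libraries. LAG3_SP stood above every TDT_SP and DN library, and DP replicate 2 lay among them. The LAG3_SP minus DN difference there was 0.315 (SE 0.0903, limma adjusted p = 0.0730), and it was 0.395 (limma adjusted p = 0.0454) without DN replicate 1 and 0.185 (limma adjusted p = 0.0895) without DN replicate 4, the lowest library. The DP minus DN difference was 0.245 (limma adjusted p = 0.186), and 0.115 (limma adjusted p = 0.361) without DN replicate 4.

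The +45.9 kb region varied widely within DP. Its rank value was 0.724, 0.644 and 0.0970 in DP, 0.770, 0.589 and 0.469 in LAG3_SP, 0.284, 0.463 and 0.449 in TDT_SP and 0.128, 0.296 and 0.269 in DN libraries. LAG3_SP was above all TDT_SP and DN libraries, and DP replicate 4 was the lowest of the 12. The difference from DN was 0.257 in DP (SE 0.158, limma adjusted p = 0.456) and 0.378 in LAG3_SP (SE 0.158, limma adjusted p = 0.198).

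The promoter and the -21.8 kb region were strong in all tumor groups. At the promoter the rank value was 0.837, 0.649 and 0.821 in DP, 0.950, 0.795 and 0.314 in LAG3_SP, 0.740, 0.841 and 0.732 in TDT_SP and 0.713, 0.736 and 0.565 in DN libraries. The groups overlapped, and the low LAG3_SP library was replicate 3, whose +0.7 kb peak had a rank value of 0.940. The promoter difference from DN was 0.0973 in DP (SE 0.126, limma adjusted p = 0.751), 0.0148 in LAG3_SP (SE 0.126, limma adjusted p = 0.994) and 0.0994 in TDT_SP (SE 0.126, limma adjusted p = 0.935). At -21.8 kb the means were 0.702 ± 0.092 in DP, 0.733 ± 0.111 in LAG3_SP, 0.761 ± 0.111 in TDT_SP and 0.765 ± 0.111 in DN libraries (SD, n = 3 each), and the 3 differences from DN lay between -0.0630 and -0.00449.

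**Figure D2:**
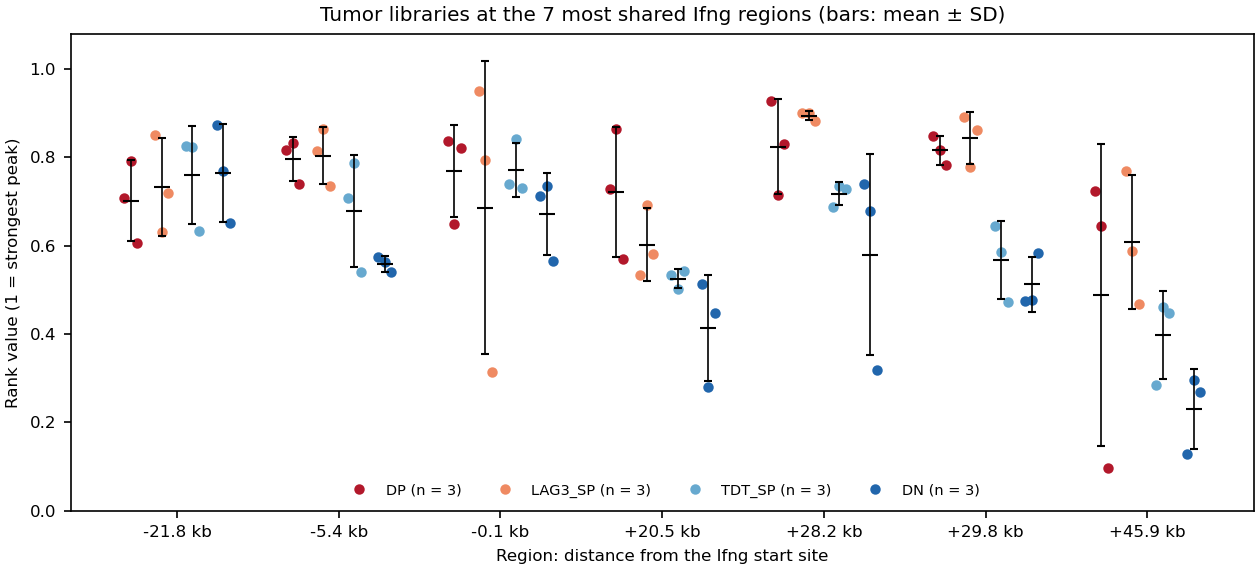
Rank value (1 for the strongest peak of a library) of the 12 tumor libraries at the 7 regions with a peak in at least 17 lists, by sorted group, with mean ± SD in black (n = 3 each). At +29.8 kb the DP and LAG3_SP points (0.778 to 0.892) lie above the TDT_SP and DN points (0.472 to 0.646), and at -21.8 kb all 4 groups overlap.

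The remaining tumor regions were present in fewer libraries. The -70.4 kb region ran the other way, with 0.370, 0 and 0.630 in DP, 0, 0.292 and 0.164 in LAG3_SP, 0.426, 0.619 and 0.607 in TDT_SP and 0.555, 0.363 and 0.411 in DN libraries. LAG3_SP lay below all TDT_SP and DN libraries there, with a difference of -0.291 from DN (SE 0.157, limma adjusted p = 0.308). The -28.1 kb region was 0.884, 0.526 and 0 in LAG3_SP, against 0.191, 0.337 and 0 in DN libraries, and the -33.9 kb region was 0.544, 0.292 and 0 in LAG3_SP, against 0.0933, 0 and 0 in DN libraries. In both, LAG3_SP replicate 3 had no kept peak. Without that library the -33.9 kb difference from DN was 0.387 (limma adjusted p = 0.0139), against 0.247 with it (limma adjusted p = 0.195). At +54.5 kb the only rank values above 0 were 0.446 and 0.166, in LAG3_SP replicates 1 and 2. At +36.5 kb the rank value was 0.0411, 0.241 and 0 in DP, 0.467, 0 and 0 in LAG3_SP, 0.00837, 0.206 and 0.0209 in TDT_SP and 0.0381, 0.0223 and 0 in DN libraries, and all groups overlapped. At +39.9 kb it was above 0 in DP replicate 2 (0.105), TDT_SP replicate 2 (0.00492) and DN replicate 2 (0.161), and at 0 in the other 9 tumor libraries. The regions at -66.6 kb (3 tumor libraries), +2.1 kb inside Ifng (4), +19.4 kb (7) and +47.1 kb (3) were not tested, and of these +19.4 kb alone also had peaks in lymph node, in 4 libraries.

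Over the tumor comparisons, 17 Ifng regions entered the test, those with a kept peak in at least 2 libraries. For DP minus DN, 1 of 17 was called, the +29.8 kb region, and it was higher in DP, against 3.00% of all regions called in either direction. For LAG3_SP minus DN, 1 of 17 was called, the same region and higher in LAG3_SP, against 4.39% of all regions. Among 17 regions, 1 call is close to these shares. For TDT_SP minus DN, 0 of 17 were called by limma, against 0.478% of all regions, and 0 had an unadjusted p under 0.05, against 9.40% of all regions. The -36.4 and +54.5 kb regions entered only through LAG3_SP replicates 1 and 2, so the direction of their LAG3_SP differences was set by the filter. The -54.2 and +0.7 kb regions were also at 0 in every DN library, so their differences from DN could not be negative. The 3 comparisons share the DN libraries, so they are not independent of each other.

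**Figure D3:**
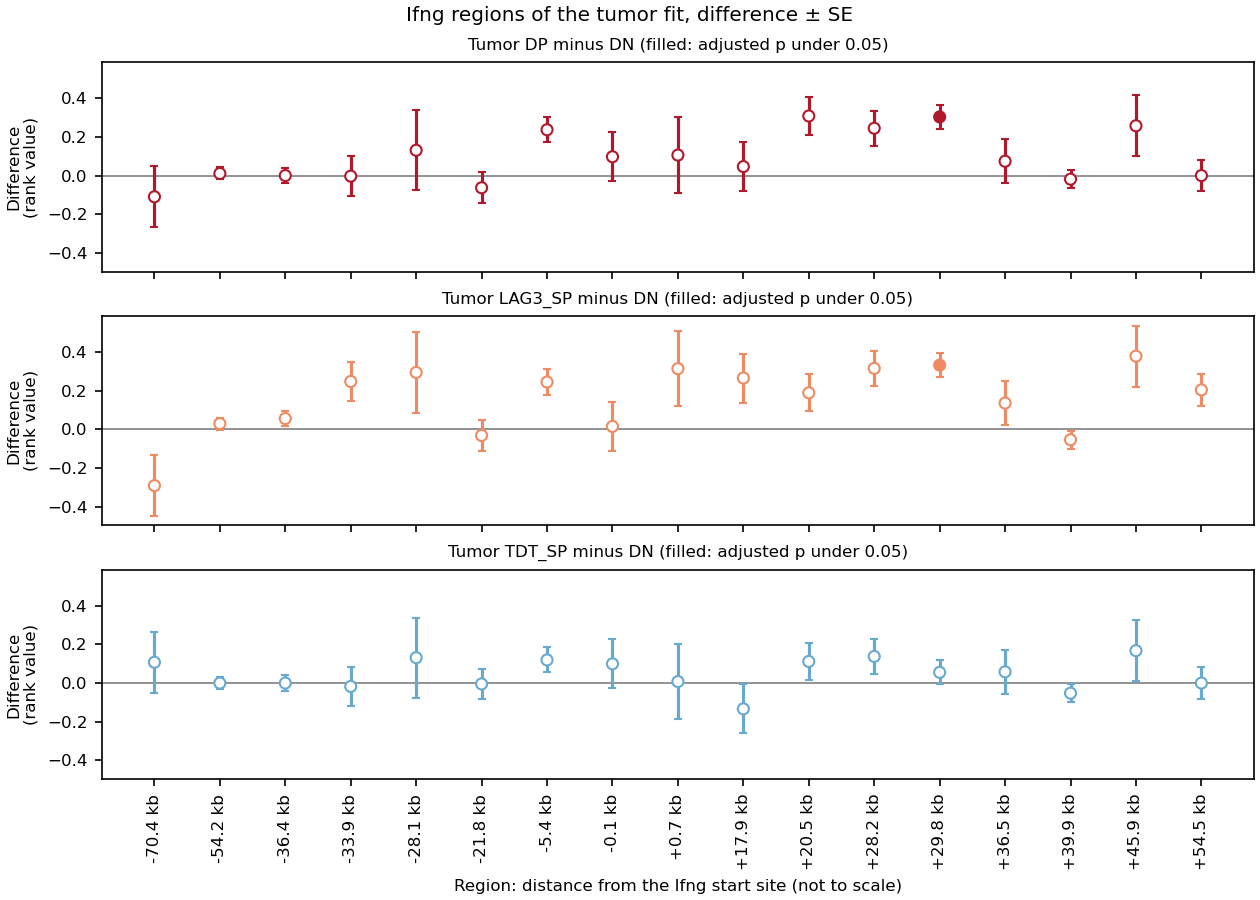
Difference in rank value from tumor DN cells (± SE) for DP, LAG3_SP and TDT_SP at the 17 Ifng regions tested, ordered by distance from the start site. The filled point in the DP and LAG3_SP panels is the +29.8 kb region (0.303 and 0.331), and the TDT_SP panel has no filled point.

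Among DP, LAG3_SP and TDT_SP cells of the tumor, no Ifng region passed the threshold. LAG3_SP minus DP gave 0 of 17 calls by limma, against 0.00% of all regions, with 2 of 17 at an unadjusted p under 0.05, against 5.54% of all regions. TDT_SP minus DP gave 0 of 17 calls, against 0.0580% of all regions, with 1 of 17 at an unadjusted p under 0.05, against 11.4%. That region was +29.8 kb, where TDT_SP was lower than DP in every library, with a difference of -0.248 (SE 0.0619, limma adjusted p = 0.177). LAG3_SP minus TDT_SP gave 0 of 17 calls, against 0.676% of all regions, with 5 of 17 at an unadjusted p under 0.05, against 17.3%. The +29.8 kb region again had the smallest p, with a difference of 0.276 (SE 0.0619, limma adjusted p = 0.0647). At +17.9 kb LAG3_SP had 0.283, 0.560 and 0.352 and TDT_SP had 0, 0 and 0, a difference of 0.398 (SE 0.127, limma adjusted p = 0.154). Without LAG3_SP replicate 3, the LAG3_SP minus TDT_SP difference at -33.9 kb was 0.404 (limma adjusted p = 0.0263).

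Tumor cells and lymph node cells were compared over the LAG3_SP, TDT_SP and DN libraries, as the mean of the 3 differences within sorted groups. In tumor, 3 of 12 tested Ifng regions were higher than in lymph node and 0 were lower, where 28.5% of all 25167 regions were called in either direction, so the share of Ifng regions called was near that of all regions. The -28.1, +17.9 and +45.9 kb regions had kept peaks in tumor libraries alone, so the filter set the direction of their differences. At -5.4 kb, just upstream of the promoter, tumor libraries ran from 0.376 to 0.815 (median 0.605) and lymph node libraries from 0 to 0.551 (median 0). The difference was 0.459 (SE 0.0879, limma adjusted p = 0.0025), and the only lymph node libraries above 0 were NDLN LAG3_SP replicate 1 at 0.551 and NDLN TDT_SP replicate 1 at 0.0950. All 6 lymph node lists held a peak at -5.4 kb, in 4 of them at ranks 15384 to 29607, below the 14000 peaks kept. The call was kept under all 24 alternative settings tried, with differences of 0.312 to 0.667.

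At +29.8 and +45.9 kb, both downstream, regions were also called between the tissues. At +29.8 kb tumor libraries ran from 0.283 to 0.854 (median 0.439) and lymph node libraries from 0 to 0.901 (median 0), with a difference of 0.348 (SE 0.106, limma adjusted p = 0.0276). NDLN LAG3_SP replicate 1, at 0.901, was above every tumor library, DLN LAG3_SP replicate 1 stood at 0.0936, and the other 4 lymph node libraries were at 0. Without NDLN LAG3_SP replicate 1 the difference was 0.482 (limma adjusted p = 0.000285). The call was lost without any 1 of DLN DN, DLN TDT_SP, NDLN DN, NDLN TDT_SP and tumor TDT_SP replicate 1, with limma adjusted p of 0.0611, 0.0595, 0.0618, 0.0584 and 0.0519. It was also lost without the 4 tumor libraries that deviated together (limma adjusted p = 0.0664), and with the strongest 10000 peaks the difference was 0.176 (limma adjusted p = 0.270). At +45.9 kb tumor libraries ran from 0 to 0.688 (median 0.252), and all 6 lymph node libraries were at 0, with a difference of 0.224 (SE 0.0611, limma adjusted p = 0.0170). This region entered through tumor libraries alone, so it could only come out higher in tumor. Of the lymph node lists, 5 held a peak at +45.9 kb, at ranks 15761 to 23879, again beyond the 14000 kept. With every peak ranked its difference was 0.255 (limma adjusted p = 0.165), and with the strongest 10000 it was 0.0874 (limma adjusted p = 0.313).

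The promoter and the -70.4 kb region lay close to the threshold. At the promoter, tumor libraries ran from 0.0690 to 0.932 (median 0.642) and lymph node libraries from 0.0275 to 0.604 (median 0.240), and the 2 tissues overlapped. The difference was 0.351 (SE 0.125, limma adjusted p = 0.0533). It was 0.435 (limma adjusted p = 0.00401) without tumor LAG3_SP replicate 3, the lowest tumor library, and 0.418 (limma adjusted p = 0.0387) without NDLN LAG3_SP replicate 1, the highest of the lymph node libraries. At -70.4 kb the difference was 0.159 (SE 0.0560, limma adjusted p = 0.0509), and it passed without tumor DN replicate 2 (limma adjusted p = 0.0406) and without tumor TDT_SP replicate 1 (limma adjusted p = 0.0191). At the -21.8 and +28.2 kb regions the values of the 2 tissues overlapped. Tumor libraries averaged 0.665 ± 0.132 and lymph node libraries 0.646 ± 0.117 at -21.8 kb, and 0.634 ± 0.242 and 0.689 ± 0.126 at +28.2 kb (SD, n = 9 and n = 6). Their differences were 0.0183 (SE 0.0638, limma adjusted p = 0.844) and -0.0545 (SE 0.0818, limma adjusted p = 0.629).

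**Figure D4:**
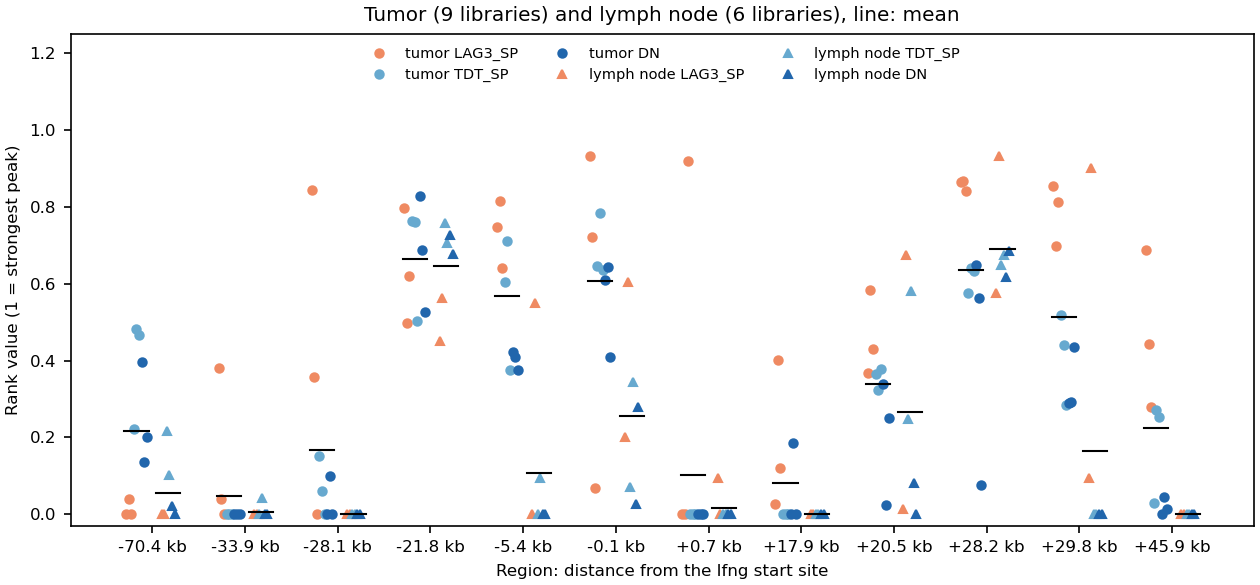
Rank value of 9 tumor libraries (circles) and 6 lymph node libraries (triangles) at the 12 Ifng regions of the comparison between tissues, colored by sorted group, with the mean as a line. At -5.4 and +45.9 kb most or all triangles are at 0, at -21.8 and +28.2 kb the 2 tissues overlap, and 1 LAG3_SP triangle at +29.8 kb (0.901) stands above all circles.

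Within lymph nodes, where each sorted group had 2 libraries, 1 from each kind of node, no Ifng region passed. LAG3_SP minus DN gave 0 of 12 calls by limma, against 10.0% of all regions, with 1 of 12 at an unadjusted p under 0.05, against 21.1%. That region was +29.8 kb, with 0.0936 in DLN and 0.901 in NDLN for LAG3_SP, against 0 and 0 for DN, a difference of 0.497 (SE 0.200, limma adjusted p = 0.171). The value rested on 1 library, and without DLN LAG3_SP replicate 1 it was 0.901 (limma adjusted p = 0.000786), where the lone NDLN library is assumed to vary like the others. TDT_SP minus DN gave 0 of 12 calls by limma, against 7.13% of all regions, with 0 of 12 at an unadjusted p under 0.05, against 15.9%. At +20.5 kb TDT_SP had 0.249 in DLN and 0.581 in NDLN, against 0.0810 in DLN and 0 in NDLN for DN, a difference of 0.375 (SE 0.196, limma adjusted p = 0.411). The test of whether the difference from DN was another in tumor than in lymph node gave 0 of 12 calls for LAG3_SP, against 7.20% of all regions, and 0 of 12 for TDT_SP, against 4.10%. At an unadjusted p under 0.05 there were 1 of 12 for LAG3_SP, against 19.0% of all regions, and 0 of 12 for TDT_SP, against 11.8%. That one was +45.9 kb, where LAG3_SP minus DN was larger in tumor by 0.451 (SE 0.150, limma adjusted p = 0.10), and without tumor LAG3_SP replicate 3 by 0.546 (limma adjusted p = 0.0195). The +45.9 kb region entered through tumor libraries alone, and every lymph node library was at 0. Its interaction therefore restates the tumor difference and holds no separate lymph node measurement.

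Averaged over the 13 Ifng regions that had a peak among the strongest 14000 in at least 2 of the 18 libraries, the mean rank value was 0.412, 0.398 and 0.340 in DP, 0.500, 0.420 and 0.364 in LAG3_SP, 0.298, 0.344 and 0.271 in TDT_SP and 0.272, 0.237 and 0.176 in DN libraries of the tumor. It was 0.110 and 0.325 in LAG3_SP, 0.168 and 0.196 in TDT_SP and 0.113 and 0.126 in DN libraries of the lymph nodes, DLN before NDLN. From the highest group mean to the lowest, tumor LAG3_SP averaged 0.428 ± 0.068, DP 0.383 ± 0.038, TDT_SP 0.305 ± 0.037 and DN 0.228 ± 0.049 (SD, n = 3 each). Neighbors in this order overlapped, LAG3_SP with DP, DP with TDT_SP and TDT_SP with DN, whereas all DP and LAG3_SP libraries were above all DN libraries. The highest lymph node library, NDLN LAG3_SP replicate 1, lay within the range of tumor TDT_SP, and it was also the one with the shortest list (14244 peaks). Of the 13 regions, those at -28.1, +17.9 and +45.9 kb had kept peaks in tumor libraries alone. They could only raise tumor means over lymph node means.

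**Figure D5:**
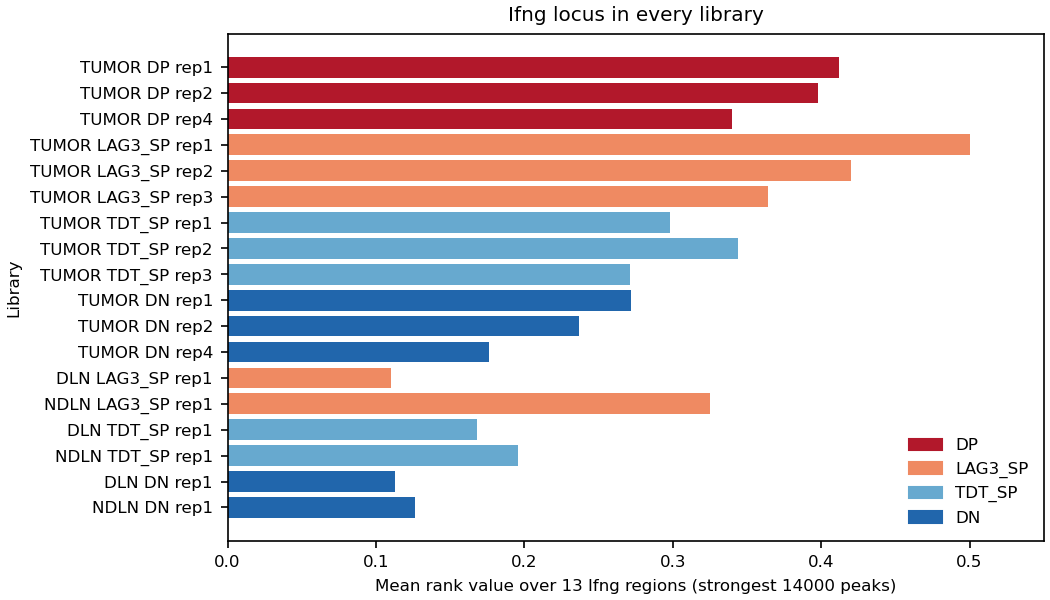
Mean rank value over 13 Ifng regions in each of the 18 libraries, from the strongest 14000 peaks of each list, colored by sorted group, tumor above lymph node. Tumor libraries run from 0.176 to 0.500 and lymph node libraries from 0.110 to 0.325.

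Among 2964 other genes with at least 3 such regions, the mean rank value of Il10, the gene of an anti-inflammatory cytokine that effector T cells can also make, followed that of Ifng most closely. Pearson's r was 0.980 over the 18 libraries, 0.975 over the 12 tumor libraries and 0.945 over the 6 lymph node libraries, with 8 Il10 regions. The next 4 genes were Gm4832 (r = 0.948), Dscam (r = 0.939), Ccdc186 (r = 0.937) and Plek (r = 0.934), with 3 to 7 regions each. All points share their library and its depth with Ifng, and the genes were picked as the highest of 2964, so these values are a description.

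The genes that switch Ifng on and carry its signal were read from the same fits. Of 25 such genes, 22 had 140 regions in the tumor comparisons, and 5 regions were called for DP minus DN (3.57%), 3 higher and 2 lower, which is near the share over all regions. The same number was called for LAG3_SP minus DN, 3 higher and 2 lower, and 1, which was lower, for TDT_SP minus DN (0.714%). Among the factors that act at the Ifng locus, a region inside Tbx21 at chr11:97103988-97104488 averaged 0.698 ± 0.193 in DP, 0.773 ± 0.066 in LAG3_SP, 0.599 ± 0.112 in TDT_SP and 0.172 ± 0.158 in DN libraries (SD, n = 3 each). It was higher than in DN by 0.526 in DP (SE 0.115, limma adjusted p = 0.0289) and by 0.601 in LAG3_SP (SE 0.115, limma adjusted p = 0.0129). A region inside Runx3 at chr4:135169042-135169542 averaged 0.658 ± 0.048 in DP, 0.648 ± 0.093 in LAG3_SP, 0.370 ± 0.0996 in TDT_SP and 0.141 ± 0.242 in DN libraries (SD, n = 3 each), and it was higher than in DN by 0.517 in DP (SE 0.127, limma adjusted p = 0.0487) and by 0.507 in LAG3_SP (SE 0.127, limma adjusted p = 0.0423). The Tbx21 call was kept in 12 of 22 alternative settings for DP and 17 of 22 for LAG3_SP, and the Runx3 call in 6 of 22 and 5 of 22. Of the genes for inducers, Il18r1, a chain of the IL-18 receptor, had 1 region, 0.935 kb outside the gene, higher in DP (0.295, SE 0.0608, limma adjusted p = 0.0221), and Stat4, which carries the IL-12 signal, had 1 region, inside the gene, higher in LAG3_SP (0.524, SE 0.111, limma adjusted p = 0.0209). These were kept in 13 of 21 and 13 of 22 alternatives. The Il18r1 region was at 0 in every DN and TDT_SP library, so the filter set the direction of its difference from DN. The Stat4 region averaged 0.539 ± 0.029 in LAG3_SP, 0.335 ± 0.064 in DP, 0.356 ± 0.159 in TDT_SP and 0.015 ± 0.027 in DN libraries.

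The lower regions all belonged to Jak1, a kinase of the IFN-γ receptor. Its region at chr4:101175159-101175659, inside the gene, was at 0 in every DP, LAG3_SP and TDT_SP library and averaged 0.448 ± 0.094 in DN libraries, a difference of -0.448 (SE 0.0599) with a limma adjusted p of 0.00255 for DP, 0.00222 for LAG3_SP and 0.00634 for TDT_SP, kept in 19, 19 and 18 of 22 alternatives. The second, at chr4:101167741-101168241, was at 0 in the same libraries and averaged 0.211 ± 0.071 in DN libraries. Both Jak1 regions entered the tumor comparisons through DN libraries alone, so the direction of these differences was set by the filter. Of 21 regions of 4 target genes of IFN-γ, 0 were called by limma in any of these 3 comparisons, with 3, 3 and 2 at an unadjusted p under 0.05 for DP, LAG3_SP and TDT_SP. Of 15 regions assigned to the neighbors Mdm1, Il22 and Dyrk2, 1 was higher in DP (6.67%) and 2 in LAG3_SP (13.3%) than in DN, against 3.00% and 4.39% of all regions. The region called in both lies 68.0 kb outside Dyrk2, at chr10:118787347-118787847, and averaged 0.703 ± 0.133 in DP, 0.714 ± 0.072 in LAG3_SP, 0.269 ± 0.134 in TDT_SP and 0.137 ± 0.237 in DN libraries (SD, n = 3 each). It was kept in 7 of 22 alternatives for DP and 12 of 22 for LAG3_SP. The other, 9.21 kb outside Il22, the gene of a cytokine that acts on epithelial cells, at chr10:118195120-118195620, averaged 0.475 ± 0.186 in LAG3_SP and was at 0 in DN libraries (limma adjusted p = 0.0499, kept in 8 of 22 alternatives). That region averaged 0.458 ± 0.136 in DP and 0.108 ± 0.113 in TDT_SP libraries. With every DN library at 0, its difference from DN could not be negative.

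Between tumor and lymph node, 20 of the 25 genes had 110 regions, with 12 higher in tumor and 17 lower (26.4%), again near the share over all regions. Of 37 regions of the factors that act at the Ifng locus, 6 were higher in tumor and 4 lower (27.0%). The regions of Tbx21 and Runx3 named above were higher in tumor, by 0.333 (limma adjusted p = 0.00486) and 0.246 (limma adjusted p = 0.00793), in 24 and 22 of 24 alternatives. The Runx3 region had kept peaks in tumor alone, so the filter set its direction. The lower regions were assigned to Ikzf1, Stat5b and Eomes, with the largest difference, -0.670 (limma adjusted p = 0.00022), inside Ikzf1. Eomes and Stat5b also had a region higher in tumor, by 0.278 (limma adjusted p = 0.0131) and 0.125 (limma adjusted p = 0.0324). The lower Eomes region and the Ikzf1 region at chr11:11667862-11668362 had kept peaks in lymph node alone, so the filter set their direction. Jak1 had 5 regions lower and 1 higher in tumor, and Il12rb2, a chain of the IL-12 receptor, had 3 lower. The higher Jak1 region had kept peaks in tumor alone. Jak1 at chr4:101217089-101217589 and Il12rb2 at chr6:67317830-67318330 had them in lymph node alone, so the filter set these directions. Stat4 had regions lower in tumor, with differences of -0.494 (limma adjusted p = 0.00119) and -0.275 (limma adjusted p = 0.00899). The Stat4 region described for LAG3_SP was higher, by 0.171 (limma adjusted p = 0.0250). The -0.494 region had kept peaks in lymph node alone and the higher one in tumor alone. Irf1, a transcription factor induced by IFN-γ, had 2 regions higher in tumor, by 0.204 (limma adjusted p = 0.0443) and 0.354 (limma adjusted p = 0.00599), kept in 6 and 22 of 24 alternatives.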

How the data were processed

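Peak lists from ATAC-seq of sorted CD8+ T cells were analysed. Reads were aligned with BWA to GRCm38/mm10 and peaks were called with MACS2, per the submitters' processing notes, with tool versions and settings not given in the sources used here. The lists are per library, and the values deposited for a peak are a fold ratio over local background, −log10 p, −log10 q and an integer score. No read counts are in these lists, so the depth is unknown and no interval from depth is given. The fragments stacked at a summit were solved from the authors' fold ratio and −log10 p, and 273 of 278 Ifng peaks had a solution in whole fragments within 0.01 in −log10 p.

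Of 586440 peaks, 53 lay outside chromosomes 1 to 19 and X and were left out. A summit was assigned to the protein-coding gene it lay in, or else to the nearest of 21631 within 100 kb, by RefSeq annotation of GRCm38.p6. Lists under 10000 peaks were not used in comparisons. Summits were merged into 0.501 kb regions from the strongest down, and a library's value at a region is the quantile by −log10 p of a peak overlapping it by at least 1 bp, among its strongest 19000 peaks (12 tumor libraries) or 14000 (15 LAG3_SP, TDT_SP and DN libraries of both tissues). Regions with a value in at least 2 libraries entered limma 3.58.1 (R 4.3.3) with a mean for each group, a trended prior variance and Benjamini-Hochberg adjustment over all regions. Draining and non-draining nodes were pooled, and the tissue difference is the mean of 3 differences within sorted groups. Python 3.11.15, numpy 2.4.6, pandas 2.3.3, scipy 1.17.1 and matplotlib 3.10.9 did the rest.

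Genes of the interferon gamma list and the neighbors Il22, Mdm1 and Dyrk2 were named only for a called region, and the 5 genes most like Ifng by Pearson's r of the mean rank value over libraries. The locus, the lists and the tests were chosen with earlier results of these data known. The alternatives changed the number of peaks kept, the column ranked, presence against rank, the overlap rule, the region width, the libraries in the fit, the prior, and the replicate number as a block, and left out each library in turn.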

Additional observations from a re-analysis of the deposited data

Results flagged for a closer look

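At the 12 regions of the comparison between tissues, single libraries stood apart from the others of their tissue in 10 of 21 sets of values. A chance rate of about 1 in 20 does not apply to these sets. Many values are 0 because no kept peak overlapped the region, and the 9 tumor and the 6 lymph node libraries each mix 3 sorted groups. In 3 of the 10 every other library was at 0, so any value above 0 stands apart. Tumor LAG3_SP replicate 1 stood high at -33.9 kb (rank value 0.381) and at -28.1 kb (0.843), replicate 2 at +17.9 kb (0.402) and replicate 3 at +0.7 kb (0.919, where the other 8 tumor libraries were at 0). Tumor DN replicate 4 stood low at +28.2 kb (0.0771). Among lymph node libraries, NDLN LAG3_SP replicate 1 stood high at -5.4 kb (0.551), +28.2 kb (0.933) and +29.8 kb (0.901). The other two were NDLN TDT_SP replicate 1 at -33.9 kb (0.0428) and DLN LAG3_SP replicate 1 at +0.7 kb (0.0942), each with the other 5 at 0.

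The 6 lists of fewer than 10000 peaks, which entered no comparison, held Ifng locus peaks in 3 cases. DLN TDT_SP replicate 2 had 3 peaks, tumor DN replicate 3 had 2 and tumor DP replicate 3 had 1, and the other 3 had 0. The summits lay at -21.66, +0.41 and +0.72 kb in DLN TDT_SP replicate 2. They lay at +0.42 and +0.66 kb in tumor DN replicate 3 and at +0.7 kb in tumor DP replicate 3. All but the summit at -21.66 kb lay inside Ifng, and none lay in the promoter.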

How the results depend on the processing

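For DP minus DN in tumor, the Ifng regions called (1) numbered 0 with all peaks, with the strongest 10000, with presence or absence, with order by fold ratio, with summits inside regions and with the compared groups alone. They numbered 2 without the 4 libraries that deviated together, which was chosen after seeing the data, and 0 to 2 without single libraries, with 0 without DN replicate 1, DN replicate 2, DP replicate 1 or DP replicate 2. For LAG3_SP minus DN (1) there were 0 with all peaks, presence or absence, fold ratio and the compared groups alone, 3 with wider regions, 2 without the trend, 2 without the 4 libraries and 0 to 4 without single libraries, with 0 without LAG3_SP replicate 1 and 4 without LAG3_SP replicate 3, of which +54.5 kb had kept peaks in LAG3_SP alone. With summits inside regions the 1 call was at -5.4 kb and not at +29.8 kb. For LAG3_SP minus TDT_SP (0) there was 1 without the trend and 0 to 2 without single libraries, +54.5 kb again among the 2. Between tissues (3) there were 5 with wider regions and 2 to 5 without single libraries, with 5 without tumor LAG3_SP replicate 3. Within lymph nodes, LAG3_SP minus DN (0) gave 1 with all peaks, 1 with presence or absence and 0 to 3 without single libraries, with 3 without DLN LAG3_SP replicate 1, and TDT_SP minus DN (0) gave 1 with all peaks. The interaction with tissue for LAG3_SP (0) gave 1 with all peaks, 1 with presence or absence, 1 without the 4 libraries and 0 to 1 without single libraries, and that for TDT_SP (0) gave 1 with all peaks. TDT_SP minus DN, LAG3_SP minus DP and TDT_SP minus DP stayed at 0 called Ifng regions in every alternative run. The cause was not tested.

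Over all regions, the 880 calls of DP minus DN became 13 with all peaks, 182 with the strongest 10000, 579 with presence or absence, 299 by fold ratio, 1869 without the 4 libraries and 0 with the compared groups alone. The 1286 calls of LAG3_SP minus DN became 11, 605 and 389 with all peaks, presence or absence and fold ratio, 2667 without the 4 libraries and 0 with the compared groups alone. A region 0.209 kb outside Runx3 (chr4:135120186-135120686), 0.0916 higher in tumor (limma adjusted p = 0.0151), had a tumor minus lymph node difference of -0.0215 by fold ratio.

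With the replicate block, 2 Ifng regions were called for DP minus DN and 2 for LAG3_SP minus DN, +29.8 and -5.4 kb in both, and 1, at -5.4 kb, between tissues, where the +29.8 and +45.9 kb calls were lost. Over 14 pairs of tumor libraries with the same number the correlation of deviations was 0.0099 to 0.352, over 0.1 in 7, so the numbers were not taken to pair libraries. A comparison of 2 groups alone was not run for the tissue difference or the interactions. The lists hold no read totals, so depth and openness cannot be told apart at weak peaks.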
